A study of Mus musculus with 24 samples.

Results

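Skeletal muscle loses protein largely through the ubiquitin-proteasome system, in which an E1 enzyme activates ubiquitin, an E2 enzyme carries it, and an E3 ligase picks the protein to be tagged. Muscle-enriched E3 ligases, above all MuRF1 (gene Trim63) and atrogin-1 (gene Fbxo32), are known as atrogenes because their mRNA climbs when muscle is denervated, immobilised, starved or given glucocorticoids. Their transcription is known to be driven by FoxO factors and the glucocorticoid receptor, and is held down by insulin and IGF1 signalling. The genes described here are 10 ubiquitin ligase genes, chosen as a list by symbol: the muscle RING finger genes Trim63, Trim54 and Trim55, the F-box genes Fbxo32, Fbxo30, Fbxo31 and Fbxo21, and the ligases Cblb, Nedd4 and Mul1. What is said above of atrogenes and their control is not meant for all 10. All 10 were found among the 55416 genes of the table and all 10 were among the 16408 genes that passed the filter on low counts.

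The RNA came from skeletal muscle (gastrocnemius in the study's text) of adult mice in 4 groups of 6, sham and SMC animals of each sex. All mice carry the strain label C56BL6J, given as C57BL/6J bought at 8 weeks of age in the study's methods, and no transgene or drug separates the groups. SMC stands for small mouse cage, an acrylic box with little headroom that limits walking and rearing, in which the SMC mice lived for 8 weeks while sham mice stayed ambulatory. The comparisons ask what inactivity does to muscle mRNA in each sex and whether the sexes differ.

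Each library held 23026627 to 36880413 counts, and no library went against its sex label. Muscle identity genes such as Acta1, Ckm and Ttn together made up 114466 to 298021 CPM, that is counts scaled to the library's total, and none of 7 lymphocyte markers passed the filter. Male sham replicate 4 and female sham replicate 7 stood apart: their 10 slow fibre markers, among them Myh7 and Tnni1, summed to 91.4 and 76.4 CPM against 715 to 4594 CPM in the other 22 libraries. Both are sham libraries, and the fit over the other 22 libraries is given beside the results it changes. In bulk tissue, fewer cells or fibres of a type and less RNA per cell cannot be told apart.

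The upstream sequences of Trim63 and Trim54 are shown because Trim63 was the member that passed the test for SMC and Trim54 is its relative of the same family. RefSeq start sites (build GRCm38.p6) were given for 8 of the 10 genes, in 9 windows, and the 250 bases before each start were searched on both strands for the FoxO core TGTTTAC, for the palindrome of GAACA and TGTTC set 3 bases apart that steroid hormone receptors such as the glucocorticoid receptor are known to bind, and for the TATA box TATAAA. The Trim63 window lies at chr4:134314870-134315119 and the Trim54 window at chr5:31116362-31116611, both on the plus strand, and capitals mark the matches.
Trim63: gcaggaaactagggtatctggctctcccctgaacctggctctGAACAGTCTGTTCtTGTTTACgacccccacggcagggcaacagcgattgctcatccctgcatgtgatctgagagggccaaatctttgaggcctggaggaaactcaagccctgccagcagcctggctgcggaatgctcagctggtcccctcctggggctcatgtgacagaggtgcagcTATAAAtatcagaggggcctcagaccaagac
Trim54: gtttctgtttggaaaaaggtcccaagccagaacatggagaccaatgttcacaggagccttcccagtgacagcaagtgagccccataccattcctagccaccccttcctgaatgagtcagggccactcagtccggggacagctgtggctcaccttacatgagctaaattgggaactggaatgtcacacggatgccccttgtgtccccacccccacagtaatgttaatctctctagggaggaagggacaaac
Trim63 held the receptor palindrome from base -208 to -196 before the start, the FoxO core from -194 to -188 and a TATA box from -31 to -26. The palindrome occurred in 13 of all 32851 windows of the same length (0.0396%), the FoxO core in 3.17% and the TATA box in 12.4%. Trim54, Fbxo30, Fbxo31, Fbxo21, Cblb, Nedd4 and Mul1 held none of these letters in their windows. A match is a string of letters, and no binding was measured here.

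Per kilobase of exon, Trim63, Trim54 and Fbxo32 were the most abundant of the 10 mRNAs. Over the 24 libraries their levels averaged 147 ± 152, 117 ± 31.9 and 94.5 ± 68.2 CPM per kilobase (SD, n = 24), and these neighbours did not differ beyond their spread. Nedd4 followed at 50.3 ± 4.14, Fbxo31 at 28.8 ± 5.26 and Trim55 at 19.6 ± 1.91 CPM per kilobase. Mul1 at 7.49 ± 0.643, Cblb at 5.67 ± 1.06, Fbxo30 at 4.37 ± 0.852 and Fbxo21 at 2.98 ± 0.576 CPM per kilobase were the least abundant. The ranges of neighbouring genes in this order overlapped everywhere except between Trim55, whose lowest library was at 15.6, and Mul1, whose highest was at 8.91 CPM per kilobase.

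**Figure D1:**
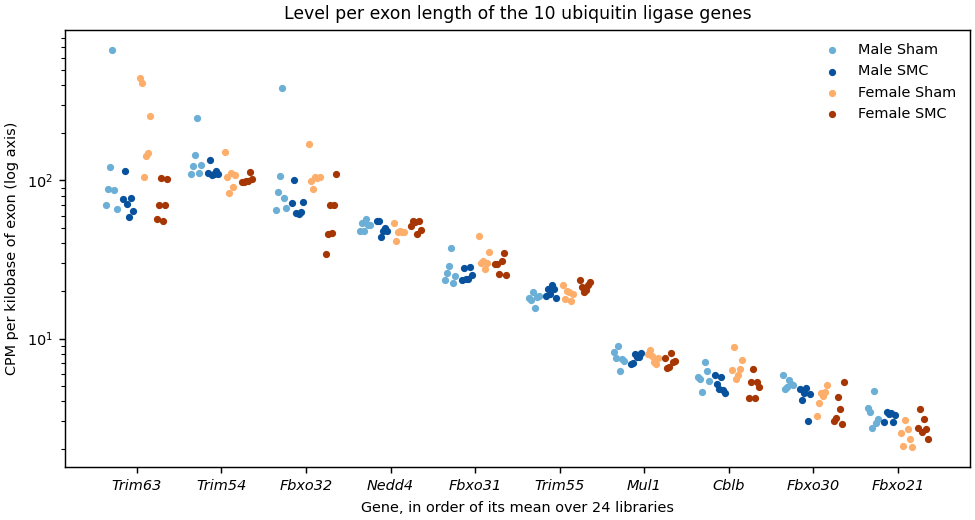
Level of each ligase gene in CPM per kilobase of exon (log axis), 1 point per library, coloured by group and ordered by the mean over 24 libraries. Trim63 and Fbxo32 spread over a far wider range than Nedd4, Trim55 or Mul1.

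The genes also differed in how variable they were. The highest library exceeded the lowest 12.1-fold for Trim63 and 11.3-fold for Fbxo32, but 1.37-fold for Nedd4, 1.43-fold for Mul1 and 1.5-fold for Trim55. Within groups the SD of log2 CPM was 0.81 for Trim63 and 0.61 for Fbxo32, which placed them at the 96.4th and 89.7th percentile of all tested genes. Trim55 (SD 0.11) and Nedd4 (SD 0.12) lay at the 5.76th and 7.47th percentile.

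Of the 3 muscle RING finger genes, Trim63 fell with SMC when both sexes were averaged, whereas Trim54 and Trim55 did not pass the test. Trim63 encodes MuRF1, a ligase of the sarcomere that tags thick filament proteins. In male sham muscle it lay between 188 and 1901 CPM with a median of 248.6, and in male SMC muscle between 166 and 326 CPM with a median of 209. The male groups overlapped, and the top male sham value belonged to replicate 4, with the other 5 between 188 and 346 CPM. In female sham muscle it lay between 299.3 and 1267 CPM with a median of 575, and in female SMC muscle between 157 and 293.9 CPM with a median of 198. All 6 female SMC libraries were below all 6 female sham libraries, of which replicates 7 and 8 were the highest at 1267 and 1170 CPM. How many of all tested genes separated in this way was not counted.

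The log2 fold change of Trim63, SMC minus sham, was -1.25 ± 0.48 (SE) in males (edgeR quasi-likelihood test, adjusted p = 0.316) and -1.72 ± 0.48 in females (adjusted p = 0.106). Averaged over the sexes it was -1.49 ± 0.34 (95% interval -2.19 to -0.79, adjusted p = 0.0215), which made Trim63 the only 1 of the 10 called, against 2.36% of all tested genes in that comparison. That call was kept in each of 31 alternative fits, with adjusted p from 0.00254 to 0.0399 and log2 fold changes from -1.59 to -0.81.

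The size in males rested on a single library. Without male sham replicate 4 the male difference was -0.18 ± 0.30 and the average -0.95 ± 0.21 (adjusted p = 0.0201), while the female difference stayed at -1.72 ± 0.29 and passed the test (adjusted p = 0.0123). Without female sham replicate 7 as well, the female difference was -1.47 ± 0.27 (adjusted p = 0.0160) and the average -0.83 ± 0.19 (adjusted p = 0.0240). Over its 32 alternative fits the female adjusted p ran from 0.0123 to 0.211, and 4 passed. The slow fibre markers named above moved with both libraries and their part in the Trim63 values was not tested. Female sham replicate 8, with slow fibre markers at 1375 CPM, was about as high in Trim63 as replicate 7. Replicate 8 had the highest scaling factor of the 24 libraries (1.32). Its sample weight in limma voom was 0.453, beside 0.283 for replicate 4 and 0.370 for replicate 7. It was kept in the fit over 22 libraries. Leaving out replicate 8 alone, the female difference was -1.53 ± 0.49 (adjusted p = 0.211).

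**Figure D2:**
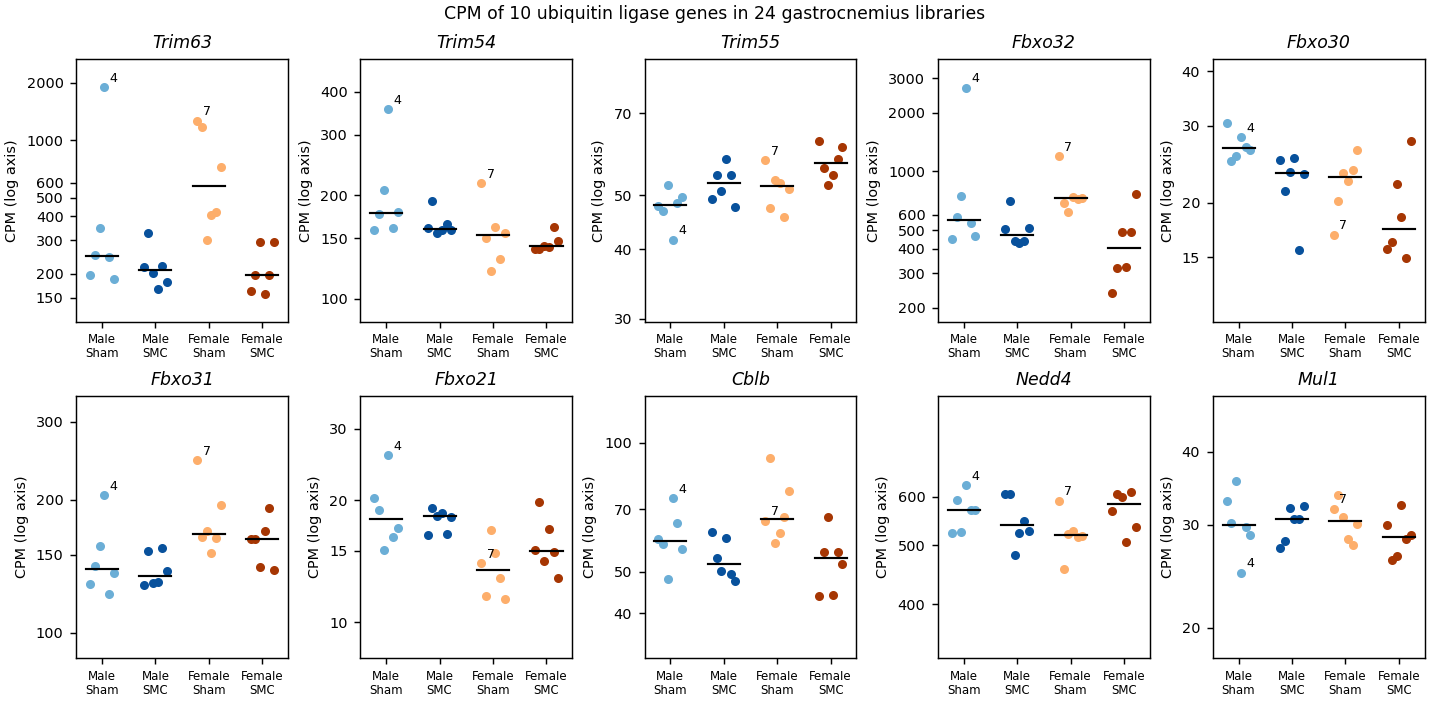
CPM of each ligase gene (log axis) in the 4 groups of 6 libraries, with 1 point per library and a line at the group median; male sham replicate 4 and female sham replicate 7 are numbered. All 6 female SMC points of Trim63 sit below the 6 female sham points, and replicate 4 is the highest library of Trim63, Trim54 and Fbxo32.

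Trim54 encodes MuRF3, a RING finger protein of microtubules and the Z-line. It lay between 159 and 356 CPM in male sham (median 178), with replicate 4 on top, and between 155 and 193 CPM in male SMC muscle (median 160). In females it lay between 120.1 and 217 CPM in sham (median 153) and between 139 and 162 CPM in SMC muscle (median 142). The groups of both sexes overlapped, and replicate 7 was the highest female sham library. The average log2 fold change was -0.21 ± 0.11 (adjusted p = 0.325), and without replicates 4 and 7 it was -0.04 ± 0.06. In GENCODE M21 an antisense gene, Gm15469, shares 382 exonic bases with Trim54, and the strand setting of the counting was not given in the sources used here, so reads of the pair may not be separated.

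Trim55 encodes MuRF2, a titin-binding relative of MuRF1. Its values went the other way, from 41.6 to 52.1 CPM (median 48.0) in male sham to 47.7 to 58.0 CPM (median 52.6) in male SMC muscle, and from 45.7 to 57.8 CPM (median 51.9) in female sham to 52.1 to 62.5 CPM (median 57.0) in female SMC muscle. The groups overlapped in both sexes. The average log2 fold change was 0.15 ± 0.05 (adjusted p = 0.0993), and it did not pass in any of 31 alternative fits (0.0512 to 0.858).

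The 4 F-box genes, whose proteins are the substrate-picking subunits of SCF ligases, held no gene that passed the test for SMC. Fbxo32 encodes atrogin-1, which is known to target MyoD and the initiation factor eIF3f. It lay between 451 and 2691 CPM in male sham (median 564) and between 429.6 and 705 CPM in male SMC muscle (median 471). In females it lay between 619 and 1194 CPM in sham (median 727) and between 238 and 763 CPM in SMC muscle (median 406). The male groups overlapped widely apart from sham replicate 4, while in females only SMC replicate 24, at 763 CPM, reached the sham range.

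The log2 fold change of Fbxo32 was -0.86 ± 0.36 in males, -0.84 ± 0.36 in females and -0.85 ± 0.25 on average (95% interval -1.37 to -0.33, adjusted p = 0.0690). Without male sham replicate 4 the male value was -0.16 ± 0.23 and the female value -0.83 ± 0.22 (adjusted p = 0.0672). Without replicates 4 and 7 together the average was -0.42 ± 0.15 (adjusted p = 0.112), and over the 31 alternatives the adjusted p of the average ran from 0.0129 to 0.112, with 3 under 0.05, among them the fit without female SMC replicate 24 (-0.97, adjusted p = 0.0424). The antisense gene Gm15943 shares 186 exonic bases with Fbxo32, with the same limit on separating strands.

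Fbxo30 encodes MUSA1, a ligase known to be held down by BMP signalling in muscle. It lay between 24.9 and 30.5 CPM in male sham, 15.6 and 25.3 CPM in male SMC, 16.9 and 26.4 CPM in female sham, and 14.97 and 27.8 CPM in female SMC muscle. In males 2 SMC libraries (replicates 13 and 16) reached into the sham range, and in females the groups overlapped throughout. The average log2 fold change was -0.24 ± 0.10 (adjusted p = 0.174), and it was -0.27 ± 0.10 (adjusted p = 0.108) without replicates 4 and 7. Over the 31 alternatives its adjusted p ran from 0.0259 to 0.278, and 2 passed. Those were the fit without female SMC replicate 24, the highest of its group (-0.31, adjusted p = 0.0490), and that without scaling factors (-0.38, adjusted p = 0.0259). Without male SMC replicate 17, the lowest of its group, the average was -0.20.

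Fbxo31, a cell-cycle and DNA-damage F-box gene, and Fbxo21, also named SMART in work on muscle wasting, had smaller average log2 fold changes. Fbxo31 ranged from 123 to 246 CPM over all libraries, with an average log2 fold change of -0.13 ± 0.09 (adjusted p = 0.442). Fbxo21 ranged from 11.4 to 25.9 CPM, with an average log2 fold change of 0.06 ± 0.08 (adjusted p = 0.768, 95% interval -0.11 to 0.23). That average combined opposite signs, -0.08 ± 0.12 in males and 0.20 ± 0.12 in females (adjusted p = 0.862 and 0.522).

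Among the other 3 ligases, Cblb had the lower values in female SMC muscle, while Nedd4 and Mul1 were nearly level when the sexes were averaged. Cblb tags IRS1, the docking protein of insulin and IGF1 signalling, in unloaded muscle. It lay between 58.4 and 92.0 CPM in female sham (median 66.5) and between 43.9 and 67.2 CPM in female SMC muscle (median 53.7). Only female SMC replicate 21 reached into the sham range. The log2 fold change was -0.41 ± 0.12 in females (adjusted p = 0.115) and -0.16 ± 0.12 in males (48.1 to 74.2 CPM in sham, 47.5 to 61.8 CPM in SMC muscle). On average it was -0.29 ± 0.08 (adjusted p = 0.0653), with 5 of 31 alternatives under 0.05 (0.0112 to 0.111). Of these 5, 3 were the fits without male sham replicate 3, female sham replicate 9 or female SMC replicate 21. Without female sham replicate 8, the highest at 92.0 CPM, the female value was -0.32 ± 0.11 (adjusted p = 0.259). The average was then -0.24 ± 0.08 (adjusted p = 0.108).

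Nedd4, a HECT-type ligase known for membrane proteins and for Notch and FGFR1 turnover in muscle, ranged from 458 to 626 CPM over all libraries. Its average log2 fold change was 0.04 ± 0.05 (95% interval -0.07 to 0.15). This average combined -0.05 ± 0.08 in males and 0.13 ± 0.08 in females (adjusted p = 0.871 and 0.521). Without replicates 4 and 7 the female value of Nedd4 was 0.17 ± 0.07 (unadjusted p = 0.0269, adjusted p = 0.236). Mul1, a ligase of the mitochondrial outer membrane that targets mitofusin 2, ranged from 24.8 to 35.6 CPM, with an average log2 fold change of -0.05 ± 0.05 (95% interval -0.16 to 0.07).

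**Figure D3:**
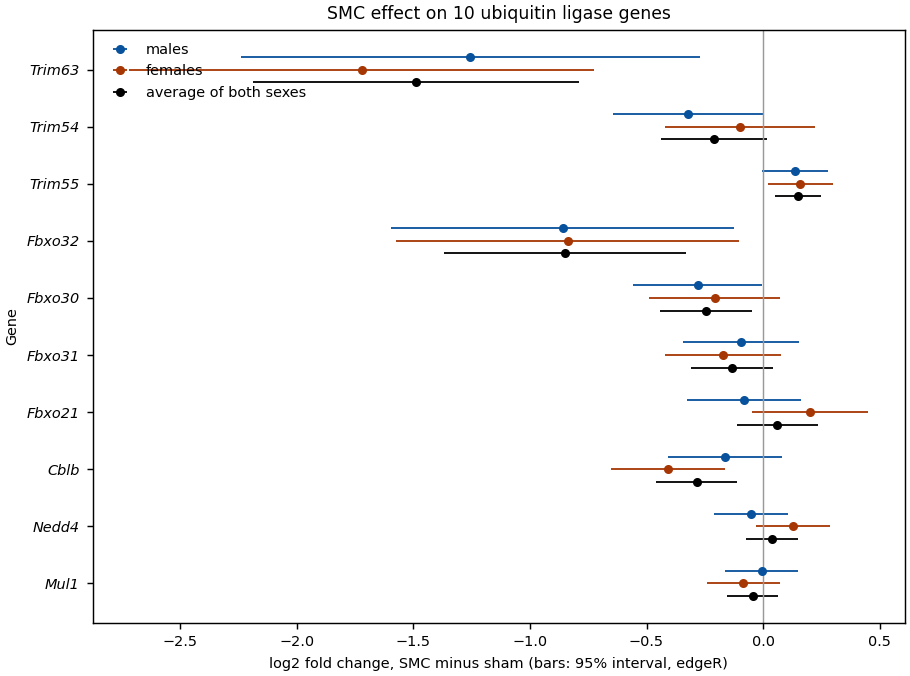
Log2 fold change, SMC minus sham, of each ligase gene in males, in females and averaged over the sexes, with 95% intervals from the edgeR fit over 24 libraries. The average for Trim63 is -1.49, the intervals of Trim63, Fbxo32, Fbxo30 and Cblb for the average lie below 0, and that of Trim55 lies above 0.

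Counted together, 9 of the 10 genes had negative log2 fold changes in males and 7 of 10 in females and on average. Of all tested genes 50.9% were negative in males, 52.4% in females and 52.4% on average. Of the 10, 8 were negative in males with upper quartile factors and 9 on average without scaling factors. In the latter Fbxo21 and Nedd4 turned negative with the median of all genes. The median over the 10 was -0.13 in males, -0.14 in females and -0.17 on average, beside medians of -0.0044, -0.011 and -0.0089 over all tested genes. Without replicates 4 and 7 it was -0.086, -0.064 and -0.055, and 7 of 10 were negative in males, 6 in females and 7 on average. Of all genes 51.6%, 51.6% and 52.8% were then negative in the same order. In males no ligase gene was called, and neither was any gene at all (0%, edgeR), while DESeq2 called 133 genes and limma voom 93 with no ligase gene among either. At an unadjusted p under 0.05, 4 of the 10 passed in males (Trim63, Fbxo32, Fbxo30 and Trim54) against 1805 genes (11%) of all tested. Over the 22 libraries none of the 10 passed it in males, against 12.3% of all genes, with log2 fold changes of -0.18 for Trim63, -0.16 for Fbxo32, -0.11 for Trim54 and -0.28 for Fbxo30. In females no ligase gene was called by edgeR, against 0.341% of all genes. None was called by limma voom and 1 (Trim63) by DESeq2, which called more genes in all than edgeR, as given below. By edgeR 4 of 10 (Trim63, Cblb, Trim55 and Fbxo32) passed the unadjusted threshold against 12.5% of all genes. On average 5 of 10 passed it (Trim63, Cblb, Fbxo32, Trim55 and Fbxo30) against 17.5% of all genes. Over the 22 libraries 5 of 10 passed it in females (Nedd4 in addition) and 5 on average, against 16.3% and 20.2% of all genes.

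**Figure D4:**
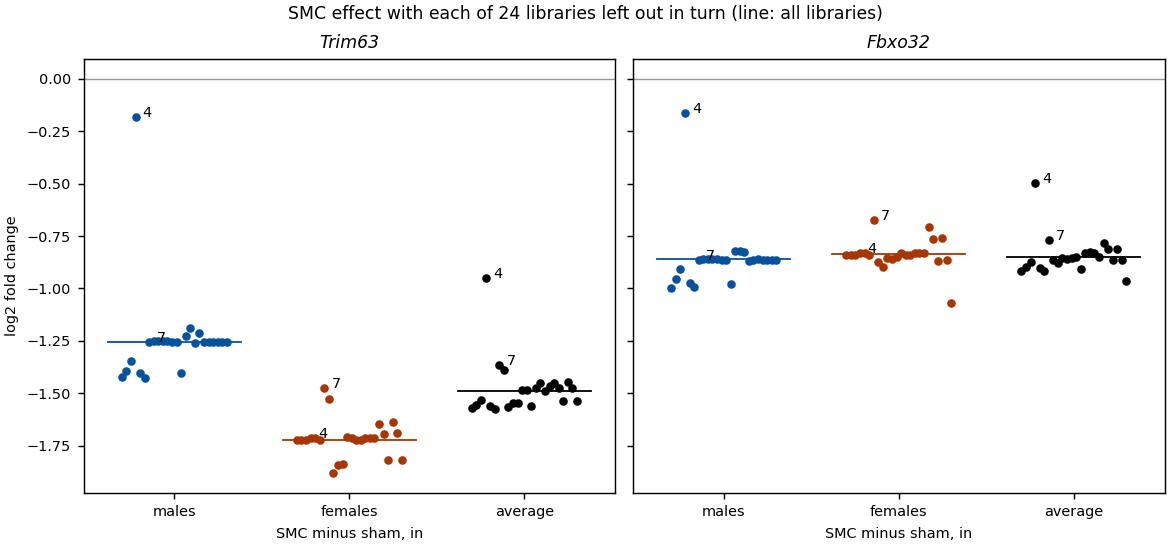
Log2 fold change, SMC minus sham, of Trim63 and Fbxo32 with each of the 24 libraries left out in turn (points) and with all libraries (lines); points for male sham replicate 4 and female sham replicate 7 are numbered. Leaving out replicate 4 moves the male value of Trim63 from -1.25 to -0.18 and that of Fbxo32 from -0.86 to -0.16, while the female values of Trim63 stay between -1.88 and -1.47.

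The response to SMC was not shown to differ between the sexes for any ligase gene. In the test of the male minus the female SMC effect no gene was called by edgeR (0%) and 1 gene, not a ligase, by DESeq2, while limma voom called none. At an unadjusted p under 0.05, 841 genes (5.13%) and none of the 10 passed, and over the 22 libraries 1 of the 10 (Trim63) against 7.71% of all genes. For Trim63 the difference was 0.47 ± 0.66 (95% interval -0.90 to 1.84, adjusted p = 0.997), an interval that spans large differences in either direction. Without male sham replicate 4 it was 1.53 ± 0.42, with an unadjusted p of 0.00121 and an adjusted p of 0.637, and over 31 alternatives the adjusted p was 0.529 or more. For Fbxo32 it was -0.02 ± 0.50, and without replicate 4 it was 0.67 ± 0.32 (adjusted p = 0.710), the opposite sign.

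In sham mice Fbxo21 differed by sex. It lay between 15.1 and 25.9 CPM in male sham and between 11.4 and 16.9 CPM in female sham muscle, and the groups overlapped. The male minus female log2 difference was 0.48 ± 0.12 (adjusted p = 0.0368), the only call among the 10 against 1.97% of all genes. It was 0.38 ± 0.11 (adjusted p = 0.0542) without male sham replicate 4, whose 25.9 CPM was the top value, and 0.39 ± 0.11 (adjusted p = 0.0633) without replicates 4 and 7; over the 31 alternatives it ran from 0.36 to 0.55, with 22 passing and adjusted p from 0.0102 to 0.103. The call was also lost, at adjusted p from 0.0644 to 0.0749, when male sham replicate 1 or 2 or female sham replicate 8, 11 or 12 was left out alone. At an unadjusted p under 0.05, 4 of 10 passed (Fbxo21, Trim54, Fbxo31 and Fbxo30) against 15.5% of all genes, and over the 22 libraries 5 of 10 against 19.8%.

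Trim63 in sham mice had a male minus female difference of -0.46 ± 0.47 (adjusted p = 0.677). Without male sham replicate 4 it was -1.53 ± 0.31 and passed the test (adjusted p = 0.00874), and without replicates 4 and 7 it was -1.29 ± 0.29 (adjusted p = 0.0171). Without replicate 7 alone it was -0.21 ± 0.48 (adjusted p = 0.856). The sham sex difference of Trim63 thus turned on whether replicate 4 was in the male group.

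Libraries that were high in Trim63 within their group also tended to be high in Fbxo32 and Trim54. After each library was centred on its group mean, Pearson's r of log2 CPM over 24 libraries was 0.85 for Trim63 with Fbxo32, 0.87 for Trim63 with Trim54 and 0.84 for Fbxo32 with Trim54. Over the 22 libraries without replicates 4 and 7 these were 0.57, 0.57 and 0.51. Nedd4 and Mul1 went opposite ways, at -0.70 over 24 and -0.82 over 22 libraries, although both were among the steadiest genes. All pairs share the library, its depth and its scaling factor, and r is given as a description.

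Genes with the pattern most like Trim63 over the 24 centred libraries were Cebpd (r = 0.93), Wbp1l (0.92), Sorbs3 (0.92), Foxo1 (0.91) and Mapk1ip1 (0.91). Over 22 libraries they were Tsc22d3 (r = 0.87), Sorbs3 (0.86), Mt2 (0.85), Wbp1l (0.85) and Ankrd9 (0.84). For Fbxo32 the 5 most alike included Zranb1 (r = 0.91), Jmy (0.90), Ddi2 (0.89) and Ric1 (0.89) over 24 libraries, and Asb14 (0.83), Jmy (0.80), Atp6v1a (0.79) and Flcn (0.78) over 22. Cebpd is a stress-responsive transcription factor, and Tsc22d3 (GILZ) and the metallothionein Mt2 are known glucocorticoid-responsive genes.

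**Figure D5:**
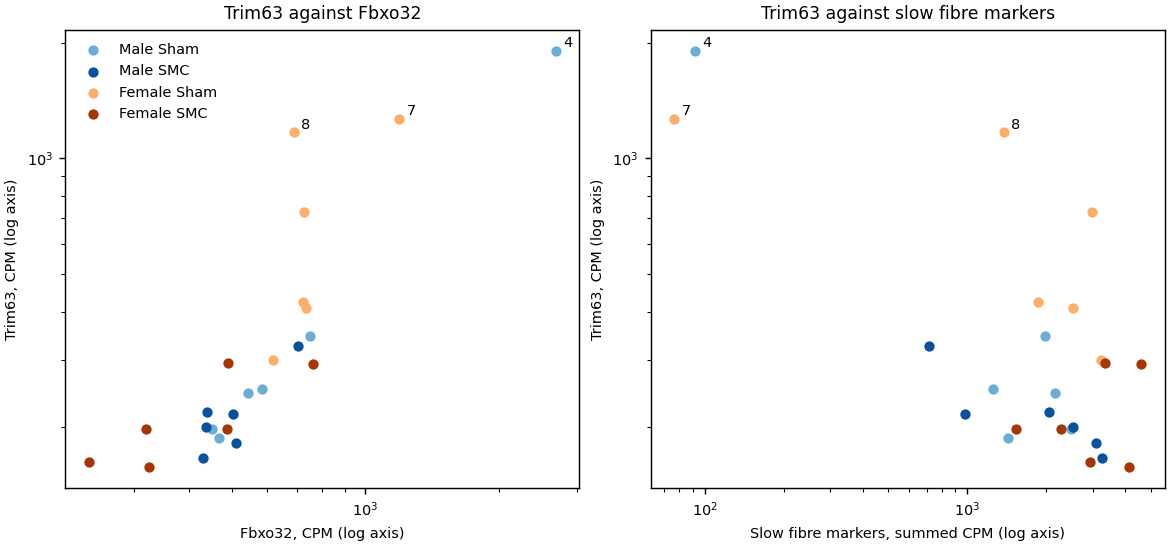
Trim63 CPM against Fbxo32 CPM (left) and against the summed CPM of 10 slow fibre markers (right), both on log axes, 1 point per library coloured by group. Replicates 4 and 7 combine high Trim63 with slow fibre markers at 91.4 and 76.4 CPM, whereas female sham replicate 8 has Trim63 at 1170 CPM with slow fibre markers at 1375 CPM.

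Transcription factors and signalling genes known to act on these ligases were tested in the same average comparison. Of 26 upstream regulators, 5 were called, against 2.36% of all genes, and all 5 were lower in SMC muscle, with a list median of -0.04. These were Foxo1 (-1.08 ± 0.26, adjusted p = 0.0283), Foxo3 (-0.49 ± 0.11, adjusted p = 0.0225), Cebpb (-0.80 ± 0.16, adjusted p = 0.0119), Klf15 (-0.57 ± 0.15, adjusted p = 0.0480) and the IL-6 receptor gene Il6ra (-0.91 ± 0.25, adjusted p = 0.0491). Without replicates 4 and 7, where 3.18% of all genes were called, the 3 called were Foxo1 (-0.60), Foxo3 (-0.33) and Cebpb (-0.63), while Klf15 (-0.36, adjusted p = 0.0659) and Il6ra (-0.52, adjusted p = 0.0593) were lost. None of the 26 was called in either sex alone over 24 libraries, against 0% of all genes in males and 0.341% in females. Over 22 libraries Foxo1, Foxo3 and Il6ra were called in females, against 0.936% of all genes.

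Of 25 FoxO, fasting and glucocorticoid responsive genes, 11 were called, against 2.36% of all genes, and all 25 had negative average log2 fold changes, against 52.4% of all genes, with a median of -0.42. Among the 11 were Mt2 (-1.90 ± 0.29), the cell-cycle inhibitor Cdkn1a (-1.65 ± 0.27), Cebpd (-1.71 ± 0.36), the glucocorticoid receptor chaperone gene Fkbp5 (-1.41 ± 0.30) and Pdk4 (-0.82 ± 0.18), the kinase that shuts pyruvate dehydrogenase. The others called over 24 libraries were Ddit4, Mt1, Glul, Ucp3, Bnip3 and Klf9. In females alone Mt2, Ucp3 and Pdk4 were called, against 0.341% of all genes. Without replicates 4 and 7, 10 were called, against 3.18% of all genes, and 23 were negative, with a median of -0.31. Ddit4 (-1.40, adjusted p = 0.0612) and Glul (-0.58, adjusted p = 0.0516) were then lost and the protease gene Ctsl (-0.23, adjusted p = 0.0276) was gained. In females Cdkn1a and Cebpd were then called as well, against 0.936% of all genes.

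In the shared machinery of ubiquitin tagging single genes were called. Of all tested genes 2.36% were called in this average comparison, and 3.18% over the 22 libraries. Among the ubiquitin genes, Rps27a, which encodes a ubiquitin-ribosomal fusion protein, fell by 0.35 ± 0.05 on the log2 scale (adjusted p = 9.81e-04). Of 21 E1 and E2 enzymes, Ube2g2, an E2 of the endoplasmic reticulum, fell by 0.35 ± 0.06 (adjusted p = 0.00296). Both also passed in females alone, at -0.35 (adjusted p = 0.0265) for Rps27a and -0.36 (adjusted p = 0.0496) for Ube2g2, against 0.341% of all genes. Over 22 libraries the average of Ube2d1, an E2 that works with MuRF1 in the test tube, passed with 0.31 ± 0.08 (adjusted p = 0.0332), against 0.26 ± 0.08 (adjusted p = 0.0940) over 24.

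Of 17 deubiquitinase and shuttle genes 1 was called, the proteasome-activating zinc finger gene Zfand5 (-0.48 ± 0.10, adjusted p = 0.0138). Of 29 further muscle ligases 1 was called, Siah1a (-0.35 ± 0.09, adjusted p = 0.0476). The share of all genes called was 2.36%, and 3.18% over the 22 libraries. The 6 tested SCF core genes held no call by edgeR and none at an unadjusted p under 0.05 (2 over the 22 libraries), the smallest being Cand1 (-0.10 ± 0.05) and Cand2 (0.12 ± 0.06). The median log2 fold changes were -0.03 for the E1 and E2 enzymes, -0.05 for the SCF core, -0.03 for the further ligases and -0.05 for the deubiquitinases and shuttles. Without replicates 4 and 7 Zfand5 was still called and Siah1a was not (-0.28, adjusted p = 0.0644), and the medians were -0.03, -0.02, 0.03 and -0.01 in the same order, so that of the further ligases changed sign.

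Genes whose proteins are reported substrates of the ligases did not pass the test. Of 18, none was called by edgeR, 3 passed an unadjusted p under 0.05 (17.5% of all genes) and 16 had positive average log2 fold changes (47.6% of all genes), with a median of 0.07. Over the 22 libraries 4 passed it, 12 were positive and the median was 0.09. The smallest p belonged to Mfn2, the mitofusin targeted by Mul1 (0.19 ± 0.07, adjusted p = 0.175), and Ttn (0.37 ± 0.16, adjusted p = 0.206). Of 11 neuromuscular junction and denervation genes, 1 was called, Musk, the receptor kinase of the endplate (-0.58 ± 0.15, adjusted p = 0.0380). The share of all genes called was 2.36%, and 3.18% over the 22 libraries. Over 22 libraries Musk was not called (-0.41 ± 0.12, adjusted p = 0.0610), while Chrne, the adult subunit of the acetylcholine receptor, was (0.35 ± 0.09, adjusted p = 0.0386).

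Markers of other cell types were called in none of the SMC comparisons over 24 libraries (edgeR). Of all genes 0% were called in males, 0.341% in females and 2.36% on average. Over 22 libraries 1 marker was called, the fibroblast collagen gene Col1a2 in females (-1.09 ± 0.24, adjusted p = 0.0276), against 0.936% of all genes. The median of the 6 fibroblast markers in females was then -0.54. At an unadjusted p under 0.05 over 24 libraries, 4 of 6 tendon and 3 of 6 fibroblast markers were lower in females. In males 2 of 6 Schwann cell markers were higher. Of all genes 12.5% passed it in females and 11% in males. Over the 22 libraries the counts were 4, 3 and 1 in the same order, against 16.3% of all genes in females and 12.3% in males. Summed tendon markers ran from 199 to 758 CPM in female sham and 127 to 388 CPM in female SMC muscle, and summed fibroblast markers from 521 to 1782 and 608 to 948 CPM. Summed slow fibre markers ran from 76.4 to 3215 CPM in female sham and 1537 to 4594 CPM in female SMC muscle, and from 91.4 to 2491 and 715 to 3257 CPM in males. Their part in the ligase values was not tested.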

How the data were processed

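RNA was sequenced after rRNA depletion with a directional kit (NEBNext Ultra II Directional) from 24 muscles, 6 per group. The authors deposited counts per gene, with the submitters' processing notes naming cutadapt 1.16, STAR 2.7.9a, featureCounts 1.6, DESeq2 1.34.0 and the build GRCm39 (mm39). Annotation release and strand setting were not given in the sources used here. Symbols came from GENCODE M21 for 52083 of 55416 Ensembl IDs, and genes without a symbol held 0.199% to 0.655% of counts. Counts were not pooled, and replicates 1 to 24 were distinct libraries (60 within-group pairs, smallest chi-square per degree of freedom 10.7).

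CPM used TMM factors, and log2 CPM a prior count of 2. Genes kept by filterByExpr (16408) were tested with edgeR 4.0.16 (glmQLFit, glmQLFTest, two-sided) in R 4.3.3, in 1 model of 4 group means. Calls needed a Benjamini-Hochberg adjusted p under 0.05 over all tested genes. The common biological coefficient of variation was 0.206, and p-values measure the spread between libraries. Levels per kilobase used merged exon lengths of GENCODE M21 by gene ID.

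The members and lists were chosen with earlier results of these data known. Named were all 10 members, called genes of each list (otherwise up to 2 with the smallest p), and for Trim63 and Fbxo32 the 5 genes most alike in centred log2 CPM. Ube2d1, Chrne and the pairs of ligases were named after their values were seen. A gene that these rules name is not reported here.

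Alternatives were DESeq2 1.42.0, limma 3.58.1 voom with sample weights, no or upper quartile factors, at least 10 counts in every library, no filter, 1 sex alone, each library left out, and male sham replicate 4 with female sham replicate 7 left out. The list counts and named listed genes without these 2 libraries were added after seeing the data. The tests were checked on simulated data. Of the count table, 0 columns lacked a sample.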

Additional observations from a re-analysis of the deposited data

Results flagged for a closer look

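Each of the 10 ligase genes was checked in each of the 4 groups for a highest or lowest library that stood far from the others, by Dixon's ratio of the gap to the group's range in log2 CPM (over 0.625 in a group of 6). Of 40 such sets 8 held a distant library, in 5 libraries, where chance alone gives about 1 in 20 and 7.66% of the 65631 sets over all tested genes did (10.6% in male sham, 5.99% in male SMC, 8.13% in female sham and 5.94% in female SMC muscle). The sets share libraries, and Trim63, Fbxo32 and Trim54 vary together, so they are not separate pieces of evidence.

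Male sham replicate 4 accounted for 3 of them, as the highest library of Trim63 (ratio 0.735), Fbxo32 (0.716) and Trim54 (0.667). Female sham replicate 7 was the highest of its group for Fbxo32 (0.739). Male SMC replicate 14 was the highest of its group for Fbxo32 (0.654, at 705 CPM) and Trim54 (0.726, at 193 CPM), and its slow fibre markers, at 715 CPM, were the lowest sum of the 12 SMC libraries. Female SMC replicate 23 was the highest of its group for Trim54 (0.657, at 162 CPM). Male SMC replicate 17 was the lowest of its group for Fbxo30 (0.643, at 15.6 CPM).

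The slow fibre markers of replicates 4, 7 and 14 moved with these values, and their part in them was not tested. No test of the difference between the sexes' SMC effects passed for a ligase gene.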

How the results depend on the processing

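The call of Trim63 for the SMC effect averaged over the sexes held in every alternative run. In males DESeq2 called 133 genes and limma voom 93, against 0 in the edgeR fit. In females the ligase genes called were 1 by DESeq2, 2 without scaling factors (Trim63 and Cblb) and 1 without male sham replicate 4 and female sham replicate 7, against 0, and the genes called were 268 by DESeq2, 215 without scaling factors, 16 by limma voom, 155 without those 2 libraries and 14 in the 12 female libraries alone, against 56. On average the ligase genes called were 3 by DESeq2 and 6 without scaling factors (all lower), against 1, and the genes called were 778 by DESeq2, 1861 without scaling factors and 189 with no filter, against 388. DESeq2 called 1 gene for the difference between the sexes. In sham mice no ligase gene (0) was called for sex without scaling factors or by limma voom, and the genes called were 575 by DESeq2, 179 without scaling factors and 511 without the 2 libraries, against 324. Apart from the settings that use fewer libraries, the cause was not tested.

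Without scaling factors the median of all genes' average log2 fold change was -0.14 against -0.0089, and the calls split into 68 higher and 1793 lower against 169 higher and 219 lower. With upper quartile factors the split was 211 higher and 204 lower. Relative to that median of all genes, the average log2 fold changes without factors were -1.44 for Trim63, -0.80 for Fbxo32, -0.29 for Cblb, -0.24 for Fbxo30 and 0.16 for Trim55.

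Leaving out 1 library at a time, the genes called ran from 0 to 78 in males, 0 to 147 in females, 236 to 501 on average, 0 to 1 for the difference between the sexes and 187 to 487 for sex in sham mice. The ligase genes called ran from 0 to 1 in females, 1 to 3 on average and 0 to 1 for sex in sham mice. In females no gene was called without female SMC replicate 22 or 23 and 147 were called without female sham replicate 9.

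The sign of a log2 difference turned in these cases, none of them a called difference. In males, without the 2 libraries, Fbxo31 was at 0.0069 and Fbxo21 at 0.017, and Mul1 was at 0.0050 with upper quartile factors and 0.0038 by limma voom. Leaving out 1 library, Fbxo31 ran from -0.15 to 0.0069, Fbxo21 from -0.14 to 0.017 and Mul1 from -0.067 to 0.044. In females Trim54 was at 0.021 without the 2 libraries and ran from -0.17 to 0.021 over single ones left out. On average, without scaling factors, Fbxo21 was at -0.066 and Nedd4 at -0.088. For the difference between the sexes, Fbxo32 was at 0.034 without scaling factors, 0.65 by limma voom and 0.51 without the 2 libraries, Fbxo30 at 0.056 by limma voom and Mul1 at -0.0018 without the 2 libraries. Leaving out 1 library, Fbxo32 ran from -0.19 to 0.67, Fbxo30 from -0.15 to 0.054, Fbxo31 from -0.040 to 0.17 and Trim55 from -0.075 to 0.0083. In sham mice, male minus female, Fbxo32 was at -0.33 by limma voom and -0.31 without the 2 libraries, and ran from -0.47 to 0.39 over single libraries left out. Mul1 was at 0.00080 by DESeq2, 0.015 without scaling factors, 0.018 with no filter, 0.029 by limma voom and 0.071 without the 2 libraries, and ran from -0.054 to 0.057.

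No paired analysis was possible because the replicate numbers 1 to 24 are each used once. Depth did not limit the ligase genes, whose lowest count in any library was 287 (Fbxo21).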

Other observations

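In sham mice 324 genes differed by sex (edgeR quasi-likelihood test, 6 against 6 libraries), which is 1.97% of those tested. Of these, 5 were genes of the ubiquitin and muscle lists other than the 10 ligases. All lists together held 230 tested genes, with the 10 ligases and the cell type markers included. As the male minus female log2 difference, Musk, the receptor kinase of the endplate, was at 1.18 ± 0.21 (SE, adjusted p = 0.00317), the deubiquitinase gene Usp13 at 0.38 ± 0.09 (adjusted p = 0.0275) and the myogenic factor Myod1 at 0.60 ± 0.16 (adjusted p = 0.0487). The metallothionein Mt2, at -1.73 ± 0.40 (adjusted p = 0.0223), and Stub1, which encodes the chaperone-linked ligase CHIP, at -0.22 ± 0.06 (adjusted p = 0.0476), were higher in females. Without male sham replicate 4 and female sham replicate 7 Stub1 was not called (-0.17, adjusted p = 0.106) and the other 4 were. Over those 22 libraries Foxo1 (-1.17), Foxo3 (-0.60), Klf15 (-0.73), Il6ra (-0.91), Ctsl (-0.30) and Gadd45a (-0.75) were also called, all higher in females, and the autophagy receptor gene Sqstm1 (0.36), higher in males. Over these libraries 3.09% of all genes were called, against 1.97% over 24.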
